A study of Mus musculus with 10 samples.

Results

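Messenger RNA levels of 9 genes of meiotic DNA break formation were followed in the juvenile mouse testis: Spo11, Mei1, Mei4, Rec114, Prdm9, Tex15, Mre11a (now Mre11), Rad50 and Nbn. The genes were chosen by name, with earlier results of these data known, and every probe set annotated to one of them alone was taken, 12 probe sets among the 18193 genes that the arrays named. All RNA came from C57BL/6 males. The pachytene spermatocytes were Percoll fraction 8 from testes at day 15, the leptotene/zygotene spermatocytes fraction 5 at day 12, and the spermatogonia fraction 2 at day 8. Whole testis and a mixture of 11 somatic tissues (skin, spleen, muscle, kidney, colon, intestine, stomach, liver, lung, heart and brain) were taken at day 15. The study's title names a search for genes of chromosome segregation at the first meiotic division. Density fractions are enriched and not pure, and no source used here gives the number of animals behind each. Each germ cell fraction came from its own age, so between these fractions stage and age cannot be told apart.

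Meiotic recombination begins with breaks that the cell makes in its own DNA. SPO11, a relative of an archaeal topoisomerase, cuts both strands and stays bound to the ends, and MEI1, MEI4 and REC114 are needed for it to do so on the chromosome axes. PRDM9, a DNA-binding histone methyltransferase, marks the places where breaks form. MRE11, RAD50 and NBN form the complex that trims the ends, and TEX15 is needed for the strand exchange proteins to load on them. Breaks form in leptotene and zygotene and are repaired in pachytene.

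Each of the 5 groups had 2 samples, with sample 1 on a first array design and sample 2 on a companion with largely other probe sets. Nothing states whether the 2 samples of a group were separate preparations. Every value is therefore 1 array per group (n = 1), no p-value can be given, and the number of arrays limits the precision. Values are scaled signals, a linear intensity brought to the same trimmed mean on the 5 arrays of a design, and a signal under the floor of its design (87.6 on the first, 47.0 on the second) is counted as not measured above background. A difference is the log2 ratio of scaled signals of 2 arrays of a design. A gene is said to have risen or fallen where it passed 4-fold. The ± beside a difference is its 95% error limit, from the 100 probe sets that both designs carry, and it ran from 0.35 for leptotene/zygotene against spermatogonia to 0.61 for pachytene against somatic mix. None of the genes described here is read by those shared probe sets, and the limit may leave out differences between animals. It is 1 value per comparison at every signal, so any larger error near the floor is not in it. Shifts with the choice of scaling are also outside it. The median of all genes in pachytene against leptotene/zygotene moved by up to 0.47, against a limit of 0.41.

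The fractions were not fully told apart by the markers of their labels. All 9 spermatogonial markers found were above the floor in spermatogonia, but 8 were in leptotene/zygotene too. There 7 of the 9 were higher beyond the error limit and none lower. Over the markers on the first design, also 7 of the 9, the summed signal was 5797 in spermatogonia, 9304 in leptotene/zygotene and 1386 in pachytene. All 8 early spermatocyte markers were above the floor in spermatogonia, leptotene/zygotene and whole testis, 6 in pachytene and none in the somatic mix. Of 10 pachytene markers none was above it in spermatogonia, 7 were in leptotene/zygotene, all 10 in pachytene and in whole testis, and 2 in the somatic mix. Sertoli cell markers were also present: all 10 were above the floor in spermatogonia and in leptotene/zygotene, and 9 in pachytene, where Amh was below it. Their summed signal was 42552 in spermatogonia, 37547 in leptotene/zygotene, 10413 in pachytene, 30119.8 in whole testis and 4477 in the somatic mix. The sum of 4 Leydig cell markers was 7725 in spermatogonia, 4049 in leptotene/zygotene and 401 in pachytene, where Cyp11a1 was below the floor, and that of 7 stromal markers, all above the floor in every group, was 36263, 18971 and 12114 in the same order. Macrophage markers went the other way, with sums of 719 (C1qa and C1qb below the floor), 1766 and 3777 over 6 genes. Whole testis stood apart in the 3' to 5' signal ratio of the Gapdh control, which was 4.33 and 3.75 on the 2 designs against 1.07 to 1.52 on the other arrays. The ratio of the actin control was also highest there (5.22 and 6.57), but it differed between the other groups too. It was 3.33 and 3.40 in spermatogonia, 3.18 and 3.13 in leptotene/zygotene, 2.41 and 2.88 in pachytene and 1.88 and 2.30 in the somatic mix. The 18S ribosomal RNA control on the first design was 2174 in spermatogonia, 1801 in leptotene/zygotene, 427 in pachytene, 176 in whole testis and 526 in the somatic mix, lowest in whole testis on both designs. The part of these shifts in the results below was not tested.

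By their main probe sets, the measurable break formation genes other than Prdm9 had their lowest signal in the somatic mix. For 4 of them (Rec114, Tex15, Mre11a and Rad50) it was below the next group by more than the error limit. Prdm9 was below the floor in both pachytene and the somatic mix, which have no order. Most of the 8 measurable genes were a little higher in leptotene/zygotene than in spermatogonia, and in pachytene they parted. The main probe set is the brightest one of a gene, from the first design where one there passed the floor. Of the 9 genes, 8 were above the floor in at least 1 group and 6 in all 5, and Mei4 in none. Spo11 rose in pachytene while Tex15, Rec114 and Mei1 fell, and Mre11a, Rad50 and Nbn differed by less than 2-fold. None of the 9 genes is X-linked in the GRCm38.p6 gene table, so the lower signals in pachytene lie on autosomes.

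**Figure D1:**
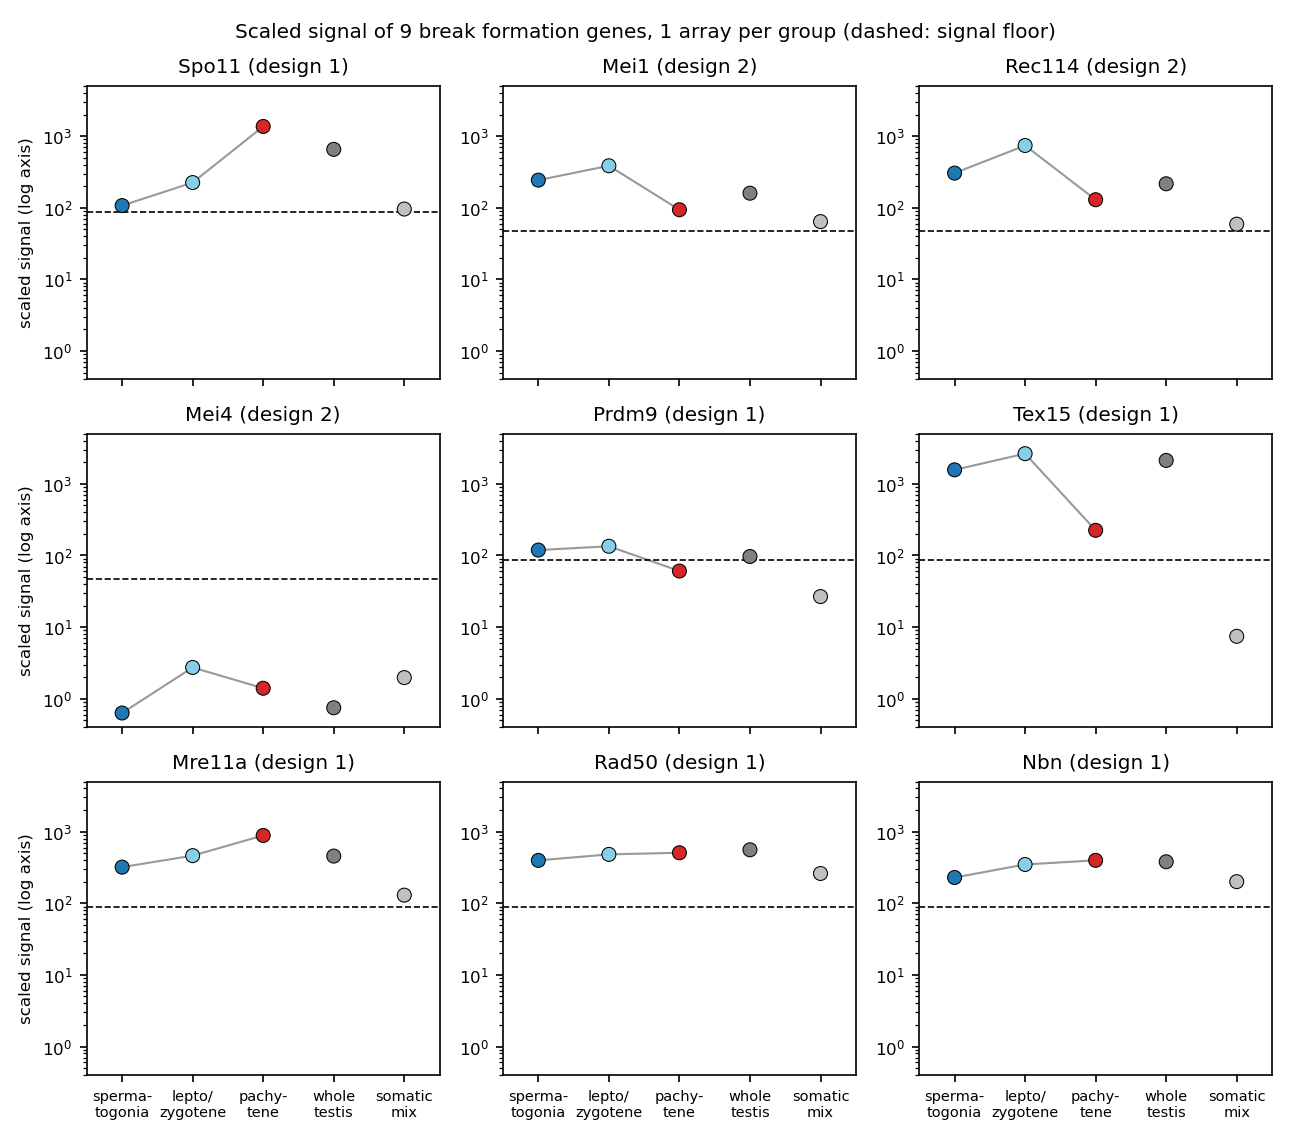
Scaled signal (log axis) of the main probe set of each of the 9 genes in the 5 groups, with 1 point per array, a line through the germ cell fractions and the floor of the array design dashed. Spo11 is highest in pachytene at 1362, Tex15, Rec114 and Mei1 are highest in leptotene/zygotene, and every Mei4 point lies below the floor of 47.0.

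Spo11 encodes the enzyme that makes the breaks, and its signal (probe set 1417021_a_at, first design) was highest after the stage at which they form. It was 107 in spermatogonia, 224 in leptotene/zygotene, 1362 in pachytene, 652 in whole testis and 95.8 in the somatic mix. Spermatogonia and the somatic mix lay just above the floor and did not differ beyond the error limit (0.16 ± 0.42), and each further step up the order, through leptotene/zygotene and whole testis to pachytene, was larger than its limit. The signal was 2.10-fold higher in leptotene/zygotene than in spermatogonia (log2 1.07 ± 0.35), short of the 4-fold threshold. In pachytene it rose 6.07-fold over leptotene/zygotene (2.60 ± 0.41) and 12.7-fold over spermatogonia (3.67 ± 0.46). It was 2.09-fold higher in pachytene than in whole testis (1.06 ± 0.46) and 2.91-fold lower in leptotene/zygotene than in whole testis (-1.54 ± 0.46). Mouse Spo11 is known for an alpha and a beta splice form, of which beta serves break formation in early meiosis and alpha becomes abundant later. The arrays carried 1 probe set for the gene, so the values hold no split between these forms. The rise over leptotene/zygotene passed 4-fold in all 8 other settings of scaling, floor, pseudocount and probe set, from 2.22 to 3.16. With 1 probe set, the mean over probe sets repeats the main value.

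Mei1 and Rec114, both needed for SPO11 to cut, were also higher in leptotene/zygotene than in spermatogonia, but went the opposite way in pachytene. Their main probe sets, 1429929_at for Mei1 and 1429203_at for Rec114, were on the second design. Mei1 had a signal of 243 in spermatogonia, 385 in leptotene/zygotene, 93.6 in pachytene, 159 in whole testis and 64.0 in the somatic mix. Rec114 had 304 in spermatogonia, 738 in leptotene/zygotene, 129 in pachytene, 216 in whole testis and 58.9 in the somatic mix. Both were highest in leptotene/zygotene, and in both pachytene lay below whole testis.

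Mei1 was 1.58-fold higher in leptotene/zygotene than in spermatogonia (0.66 ± 0.35) and fell 4.11-fold in pachytene against leptotene/zygotene (-2.04 ± 0.41). Rec114 was 2.43-fold higher in leptotene/zygotene than in spermatogonia (1.28 ± 0.35) and fell 5.71-fold in pachytene against leptotene/zygotene (-2.51 ± 0.41). Neither fall is firm at the threshold. Mei1 stayed past 4-fold in 3 of 8 other settings, with values from -2.04 to -1.38. These 3 were the 2 other floors and the mean over probe sets, which repeats the main value for a gene with no second probe set. With the 4 other scalings and the pseudocount Mei1 was short of 4-fold. Rec114 stayed past 4-fold in 5 of 8 other settings, from -2.51 to -1.86. Against the somatic mix, leptotene/zygotene was 6.01-fold higher for Mei1 (2.59 ± 0.51) and 12.5-fold higher for Rec114 (3.65 ± 0.51). Pachytene and the somatic mix did not differ beyond the limit for Mei1 (0.55 ± 0.61), and for Rec114 pachytene was higher (1.13 ± 0.61).

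The promoters of Mei1 and Rec114 are shown because both genes fell in pachytene, and that of Mre11a because its main probe set was higher in pachytene. The sequences are the 250 bases before the transcription start, from RefSeq on GRCm38.p6, for Mei1 at chr15:82082226-82082475 on the plus strand, for Rec114 at chr9:58741560-58741809 on the minus strand and for Mre11a at chr9:14784404-14784653 on the plus strand. Capitals mark matches, on either strand, to 6 short motifs.
Mei1: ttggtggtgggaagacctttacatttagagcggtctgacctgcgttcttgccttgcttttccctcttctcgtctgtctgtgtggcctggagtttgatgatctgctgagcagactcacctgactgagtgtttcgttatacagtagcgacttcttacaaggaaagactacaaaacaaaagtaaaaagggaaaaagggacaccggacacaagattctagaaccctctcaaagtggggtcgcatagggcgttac
Rec114: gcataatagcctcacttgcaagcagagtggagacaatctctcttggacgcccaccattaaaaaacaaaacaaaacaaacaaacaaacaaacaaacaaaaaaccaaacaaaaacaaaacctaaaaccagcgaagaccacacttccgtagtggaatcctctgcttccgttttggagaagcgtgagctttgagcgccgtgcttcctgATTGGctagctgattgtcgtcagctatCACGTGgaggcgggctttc
Mre11a: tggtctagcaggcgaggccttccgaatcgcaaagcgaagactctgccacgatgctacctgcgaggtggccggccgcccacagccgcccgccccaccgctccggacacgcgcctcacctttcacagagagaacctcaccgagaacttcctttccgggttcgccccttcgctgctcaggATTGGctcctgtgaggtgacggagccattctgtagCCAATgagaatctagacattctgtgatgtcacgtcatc

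The motifs searched were CCTCAG (the core of the STRA8 and MEIOSIN motif), AACNGTT (MYBL1), CACGTG (the E-box of MGA and MAX), TTCCCGC (E2F), GCATGCG (the core of the NRF1 motif) and CCAAT (NFY). No motif was found in this window of Mei1. Rec114 held CACGTG 19 bases before the start, a motif present in 6.02% of the 32851 promoter windows of the same length, and CCAAT on the opposite strand 46 bases before it, present in 33.8%. Mre11a held CCAAT on both strands, 38 and 73 bases before the start. Of the 9 genes, 5 had a promoter sequence (Mei1, Mei4, Rec114, Prdm9 and Mre11a). Mei4, not shown, held CCAAT on the opposite strand 12 bases before the start. Prdm9, not shown, held CCTCAG 39 and TTCCCGC 47 bases before the start at chr17:15564355-15564604, motifs present in 22.3% and 3.82% of windows. The same window held CCAAT on the opposite strand 19 bases before the start, and the other Prdm9 window held no motif. A match is a string of letters and was not tested as a binding site.

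Rec114 had a second probe set on the same design, 1441957_x_at, of the kind whose probes may also match other transcripts (suffix x_at). It read 91.7 in spermatogonia, 121 in leptotene/zygotene, 11.7 in pachytene, 35.7 in whole testis and 71.6 in the somatic mix. Pachytene and whole testis were below the floor there. It was lower in pachytene than in leptotene/zygotene, by at least 2.58-fold, as on the main probe set. It did not place whole testis above somatic tissue. Whole testis was at least 1.52-fold lower than the somatic mix (bound of -0.61 ± 0.57), whereas on the main probe set it was 3.66-fold higher. Leptotene/zygotene was higher than the somatic mix on the second probe set too (0.76 ± 0.51). Spermatogonia did not differ from it beyond the limit (0.36 ± 0.42), and pachytene was at a bound of -0.61 ± 0.61.

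Mei4, the partner of REC114 in the axis complex, was not measurable. Its 1 probe set, 1437935_at on the second design, gave 0.63 in spermatogonia, 2.73 in leptotene/zygotene, 1.40 in pachytene, 0.75 in whole testis and 1.97 in the somatic mix. All 5 values lay far below the floor and have no order.

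Prdm9, which marks the sites of breaks, was read near the floor of 87.6 (probe set 1426107_at, first design). It had 119 in spermatogonia, 134 in leptotene/zygotene, 60.6 in pachytene, 96.8 in whole testis and 26.7 in the somatic mix, and the last of these and pachytene were below the floor. The germ cell signals above it did not differ beyond the limit (leptotene/zygotene against spermatogonia, 0.18 ± 0.35). Pachytene was at least 1.54-fold lower than leptotene/zygotene, and leptotene/zygotene was at least 1.54-fold higher than the somatic mix. A larger difference was not measurable at this signal.

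Tex15, needed for DMC1 to load on resected breaks, showed the widest range of the 8 measurable genes. Its signal (probe set 1420719_at, first design) was 1568 in spermatogonia, 2638 in leptotene/zygotene, 224 in pachytene, 2124 in whole testis and 7.44 in the somatic mix, the last below the floor. Spermatogonia already had most of the signal of leptotene/zygotene, which was 1.68-fold higher (0.75 ± 0.35), and neither differed from whole testis beyond its limit. In pachytene Tex15 fell 11.8-fold against leptotene/zygotene (-3.55 ± 0.41), 6.98-fold against spermatogonia (-2.80 ± 0.46) and 9.46-fold against whole testis (-3.24 ± 0.46). It was still at least 2.56-fold higher in pachytene than in the somatic mix, and at least 30.1-fold higher in leptotene/zygotene and 24.2-fold higher in whole testis than there. The fall against leptotene/zygotene passed 4-fold in all 8 other settings, from -3.90 to -3.0. Tex15 had no second probe set, so the mean over probe sets repeats its main value.

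The 3 subunits of the end-trimming complex act in all dividing cells and were above the floor in every group by their main probe sets, 1416748_a_at, 1422630_at and 1448746_at on the first design for Mre11a, Rad50 and Nbn. Mre11a, the nuclease, had 319 in spermatogonia, 462 in leptotene/zygotene, 884 in pachytene, 455 in whole testis and 130 in the somatic mix. Rad50, the ATPase that holds DNA ends, had 397 in spermatogonia, 481 in leptotene/zygotene, 507 in pachytene, 557 in whole testis and 260.2 in the somatic mix. Nbn, which links the complex to the ATM kinase, had 229 in spermatogonia, 348 in leptotene/zygotene, 397 in pachytene, 379 in whole testis and 200.2 in the somatic mix. All 3 had their lowest signal in the somatic mix, beyond the limit of the next group for Mre11a and Rad50 but not for Nbn, where spermatogonia lay within it (0.19 ± 0.42). Mre11a alone was highest in pachytene by more than the limit.

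Mre11a was 1.45-fold higher in leptotene/zygotene than in spermatogonia (0.53 ± 0.35) and 1.91-fold higher in pachytene than in leptotene/zygotene (0.94 ± 0.41). Over spermatogonia it was 2.77-fold higher in pachytene (1.47 ± 0.46). Nbn was 1.52-fold higher in leptotene/zygotene than in spermatogonia (0.60 ± 0.35), with pachytene within the limit of leptotene/zygotene (0.19 ± 0.41). Rad50 differed beyond the limit in neither step, with 95% intervals of -0.07 to 0.63 for the first and -0.33 to 0.48 for the second. Under other scalings the second step ran from -0.27 to 0.63 for Rad50 and from -0.15 to 0.75 for Nbn, so its direction depended on the scaling.

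The probe sets of this complex did not all give the same picture. A second Mre11a probe set, 1441990_at on the second design, read 78.7 in spermatogonia, 111 in leptotene/zygotene, 89.8 in pachytene, 97.2 in whole testis and 206 in the somatic mix. It had the somatic mix highest, with whole testis 2.12-fold lower (-1.08 ± 0.57), whereas the main probe set had whole testis 3.51-fold higher (1.81 ± 0.57). Between pachytene and leptotene/zygotene it showed no difference beyond the limit (-0.31 ± 0.41). The step from spermatogonia to leptotene/zygotene was alike on both, at 0.50 ± 0.35 and 0.53 ± 0.35. A second Rad50 probe set, 1425939_at on the first design, lay below the floor in all 5 groups, at 57.5 or less. Which transcripts each probe set matches was not analysed here.

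**Figure D2:**
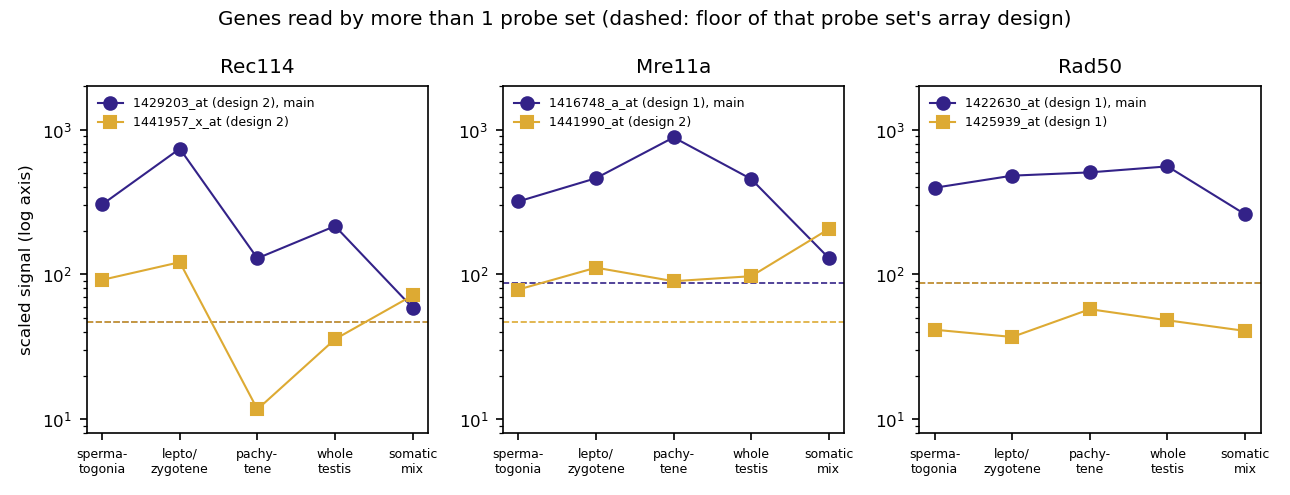
Scaled signal (log axis) in the 5 groups for the 3 genes with more than 1 probe set, with the floor of each array design dashed. Both Rec114 probe sets are lower in pachytene than in leptotene/zygotene but they differ in the somatic mix, the second Mre11a probe set is highest in the somatic mix at 206, and the second Rad50 probe set never passes its floor.

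Entry into meiosis was compared first, as leptotene/zygotene (day 12) against spermatogonia (day 8), which differ in age as well as stage. None of the 8 measured genes passed 4-fold, where 0.31% of 12916 genes passed it upward and 0.279% downward. Beyond the error limit, 6 were higher (Rec114, Spo11, Tex15, Mei1, Nbn and Mre11a), none was lower and 2 (Rad50 and Prdm9) were within it, where 24.1% of all genes were higher and 22.2% lower. At 2-fold, Rec114 and Spo11 were higher and none lower, where 3.41% of all genes were higher and 4.78% lower. The median difference of the 8 genes was 0.63, against 0.02 over all genes. In the same comparison the median was 1.44 for early spermatocyte markers, 1.11 for macrophage and 0.60 for spermatogonial markers. For the 7 measured pachytene markers, all at bounds against the floor, it was 1.63. It was -0.22 for Sertoli cell, -0.77 for Leydig and -0.84 for stromal markers. The part of cell composition in the higher signals was not tested. In such bulk samples a larger share of cells of a type and more RNA per cell cannot be told apart.

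The passage to pachytene was compared next, as pachytene (day 15) against leptotene/zygotene (day 12), which again differ in age as well as stage. Of the 8 measured genes 1 rose (Spo11), where 8.7% of 13513 genes rose, and 3 fell (Tex15, Rec114 and Mei1), where 9.34% fell. Beyond the error limit 2 were higher (with Mre11a), where 30% of all genes were, and 4 lower (with Prdm9, at its bound), where 44% were. At 2-fold the counts were again 1 and 3, where 18% were higher and 27.7% lower. The median of the 8 was -0.27, against -0.22 over all genes, and the values ran from -3.55 for Tex15 to 2.60 for Spo11. In the same comparison the median was -2.72 for Leydig markers, -2.52 for spermatogonial, -2.08 for Sertoli cell, -0.77 for stromal and -0.35 for early spermatocyte markers, and 0.96 for macrophage markers. Their part in the values of the 8 genes was not tested. The medians of all genes above the floor in both fractions depended on the scaling, moving from -0.24 by 0.17 with quantile normalization, 0.30 with median scaling and 0.47 with scaling to the shared probe sets. Over all genes 1175 rose and 1262 fell, and with scaling to the shared probe sets 1705 rose and 490 fell.

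**Figure D3:**
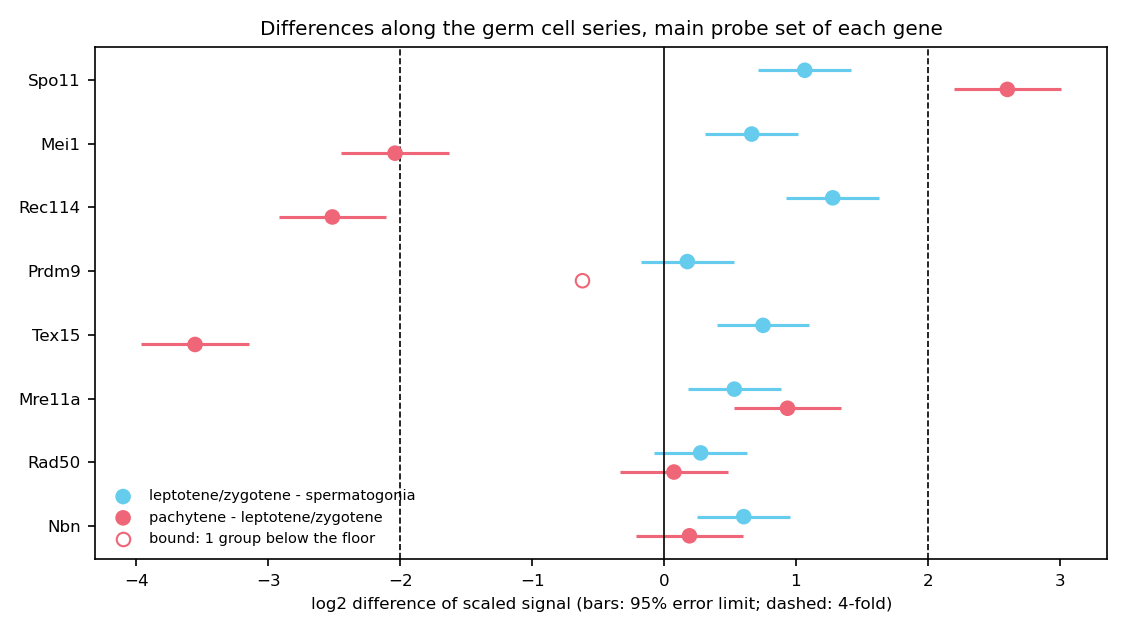
Log2 difference of scaled signal for the 8 measured genes, leptotene/zygotene minus spermatogonia in blue and pachytene minus leptotene/zygotene in red, with bars for the 95% error limit and dashed lines at 4-fold. All 8 blue points lie between 0.18 and 1.28, whereas the red points run from -3.55 for Tex15 to 2.60 for Spo11.

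Against whole testis, leptotene/zygotene held no gene past 4-fold in the main setting, where 1.19% of 13810 genes passed it upward and 4.16% downward. Rec114 (1.78 ± 0.46), Mei1 (1.27 ± 0.46) and Prdm9 (0.47 ± 0.46) were higher beyond the limit and Spo11 lower (-1.54 ± 0.46), where 25.8% of all genes were higher and 25.9% lower, while Tex15, Mre11a, Rad50 and Nbn lay within it. Prdm9 lay near its floor of 87.6 in both groups, at 134 against 96.8. At 2-fold Rec114 and Mei1 were higher and Spo11 lower, where 9.02% were higher and 11.6% lower. All 10 pachytene markers were above the floor in whole testis, with a median of -3.16 in this comparison. In whole testis against the somatic mix, Tex15 rose by at least 24.2-fold and Spo11 rose 6.81-fold (2.77 ± 0.57), where 7.22% of 14976 genes rose and 5.7% fell. Rec114 (1.87 ± 0.57), Mre11a (1.81), Mei1 (1.32), Rad50 (1.10) and Nbn (0.92) were higher beyond the limit of 0.57 on their main probe sets, and Prdm9 was at its bound of 0.14, where 29% of all genes were higher and 30.6% lower. At 2-fold 6 were higher and none lower, where 19.2% were higher and 18.4% lower. The median of the 8 was 1.56, against -0.07 over all genes. The calls moved with the scaling: Rec114 (2.19 and 2.08) and Mre11a (2.03 and 2.01) also passed 4-fold with quantile normalization and with median scaling, as did Rec114 with scaling to the shared probe sets (2.07) and Mre11a with the values as deposited (2.04). Over all 8 other settings Rec114 ran from 0.63 (the mean over its probe sets) to 2.19 and Mre11a from 1.02 (the floor at the 60th percentile) to 2.04. That mean takes only probe sets of a gene's main design, so the second Mre11a probe set (-1.08) is not in this range. With that floor Spo11 was at 1.54, short of 4-fold. The whole testis array of the first design had the 3' to 5' Gapdh ratio of 4.33, against 1.21 in the somatic mix, and its part in these values was not tested.

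The remaining pairs of groups share arrays with those above and are given as values. Against spermatogonia, pachytene had 1 gene that rose (Spo11) and 1 that fell (Tex15), where 10% of 13694 genes rose and 12.1% fell. Against whole testis, pachytene had none that rose and 1 that fell (Tex15), where 2.35% rose and 4.38% fell, and spermatogonia had none that rose and 1 that fell (Spo11, 6.09-fold), where 1.97% rose and 5.17% fell. Against the somatic mix no gene fell in any fraction. Spermatogonia had 2 that rose (Rec114, 5.16-fold, and Tex15, at least 17.9-fold), where 3.91% rose and 6.5% fell. Leptotene/zygotene had 3 that rose (Tex15, Rec114 and Mei1), where 5.36% rose and 7.23% fell. Pachytene had 2 that rose, Spo11 (14.2-fold) and Mre11a on its main probe set (6.81-fold), where 11.6% rose and 12.1% fell. On the second Mre11a probe set pachytene was 2.29-fold lower than the somatic mix (-1.20 ± 0.61).

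Other genes of the same pathway were read from lists chosen for their function. Among proteins that work with SPO11, 10 of 13 were found (Iho1, Top6bl and Zcwpw1 were not analysed here) and 9 were above the floor in leptotene/zygotene or spermatogonia. None of these 9 passed 4-fold between those fractions, where 0.31% of all genes rose and 0.279% fell. Beyond the limit 6 were higher and 1 lower, where 24.1% of all genes were higher and 22.2% lower. In pachytene against leptotene/zygotene 1 of 9 fell and none rose, where 9.34% of all genes fell and 8.7% rose. Beyond the limit 6 were lower and none higher, where 44% and 30% were, and the median was -0.76, against -0.22 over all genes. The 1 that fell was Hells, a chromatin remodeller that acts with PRDM9 (4.85-fold, 286 against 1388). Trip13, the ATPase that removes HORMA proteins from axes, had 334 in pachytene and 1273 in leptotene/zygotene (-1.93). Hormad1, an axis protein needed for break formation, had 111 in pachytene against 205 in leptotene/zygotene (-0.89), and 80.6 in spermatogonia, below the floor. Ankrd31, a partner of REC114, was just above its floor in pachytene (59.5) and in leptotene/zygotene (54.7) and below it in the other groups.

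Genes that act on the break ends went both ways. In pachytene against leptotene/zygotene 1 of 11 break end and signalling genes fell and none rose, where 9.34% of all genes fell and 8.7% rose. Beyond the limit 8 were lower and 3 higher (median -0.75), where 44% and 30% of all genes were. Atm, the kinase that senses breaks and restrains SPO11, fell 7.31-fold, with 91.3 in pachytene against 668 in leptotene/zygotene. Mdc1, which spreads the damage mark over the sex chromosomes, had 1770 in pachytene against 633 in leptotene/zygotene (1.48). Of 16 strand exchange genes 3 fell: Dmc1, the meiotic recombinase, by at least 7.62-fold, Rpa2, a subunit of the single-strand binding complex, by 5.28-fold, and Brca1 by 5.05-fold. Psmc3ip, a cofactor of DMC1, rose 5.10-fold and Hsf2bp, a partner of BRCA2, rose by 2.17 on the log2 scale. The median of the 16 was -0.38, with 8 lower and 5 higher beyond the limit, where 44% and 30% of all genes were. In leptotene/zygotene against spermatogonia 1 of these 16 rose, where 0.31% of all genes did. It was Meiob, a single-strand binding protein of meiosis (4.82-fold). Beyond the limit 13 were higher and none lower, where 24.1% and 22.2% of all genes were. The shares of all genes past 4-fold and beyond the limit are those given above for the same comparisons.

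**Figure D4:**
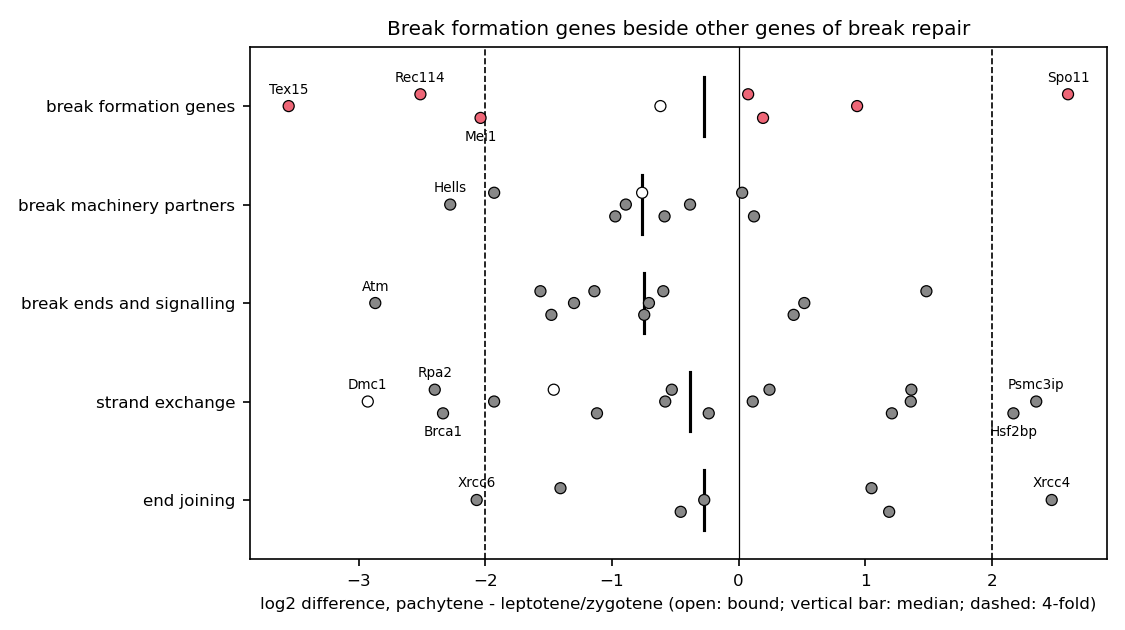
Log2 difference in pachytene minus leptotene/zygotene for the measured break formation genes and 4 lists of other break repair genes, with open points for bounds against the floor, a vertical bar at each median and dashed lines at 4-fold. Each list holds genes on both sides of 0, Spo11 (2.60) has the highest and Tex15 (-3.55) the lowest value in the plot, and the medians lie between -0.76 and -0.27.

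Profiles over the 5 groups were compared by the root mean square difference of log2 signals, with signals under the floor raised to it, after each gene was centred on its own mean. Among the 28 pairs of the 8 measured genes Rad50 and Nbn were closest (0.16), followed by Mei1 and Rec114 (0.34), and Spo11 and Tex15 were farthest apart (2.41). Of 10413 genes on the first design, Spo11 was nearest to Timm8a2 (0.07), Wdr12 (0.17) and Rangrf (0.17), and Timm8a2 read 77.2 in spermatogonia (below the floor), 193 in leptotene/zygotene, 1267 in pachytene, 552 in whole testis and 1.45 in the somatic mix (below the floor, where Spo11 read 95.8). Tex15 was nearest to Serpina5 (0.09), which read 1530 in spermatogonia, 2267 in leptotene/zygotene and 197 in pachytene, and then to Fmr1nb (0.33) and Uba1y (0.33). Mre11a was nearest to Smc6 (0.07), a subunit of the SMC5/6 complex, with Mapk6 (0.08) and Med7 (0.09) next. Of 5283 genes on the second design, Mei1 was nearest to Rundc3b (0.13), Gm527 (0.14) and Drp2 (0.14), and Rec114 to Fam90a1b (0.18), Pramel13 (0.24) and Btbd18 (0.27). Rad50 was nearest to Mrs2, Zfp942 and Stmn1, Nbn to Capn15, Tars2 and Atp6v1h, and Prdm9 to Fzd9, Deaf1 and Pim2, at 0.03 to 0.07. With 5 points per gene a close match describes these arrays only.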

How the data were processed

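Biotin-labelled cRNA was prepared from amplified total RNA, per the labels' protocols. The deposited values are linear intensity, 1 value per probe set and array, made with GCOS 1 per the submitters' processing notes. No source used here states the scaling target, background correction or detection calls. Arrays of each design were scaled to a common 2% trimmed mean and differences taken as log2 ratios of the deposited intensity after that scaling. The floor of the first design was the 90th percentile over its 68 probe sets for chemosensory receptors. The second design held 15 of these, fewer than the 20 required, and its floor is the median signal of the whole design. Probe sets naming several genes or none were left out: 20380 of 22690 named 1 gene on the first design (20351 matched to an Entrez gene) and 14661 of 22575 on the second (14486 matched). Of several probe sets for a gene, the brightest by mean log2 signal was the main one, and the first design had precedence if it measured the gene. The error was the root mean square disagreement of the 2 designs on a difference, over their 100 common probe sets and scaled to a single array pair (by the square root of 2); the limit is 1.96 times the error. No gene was tested, since each design holds 1 array per group. The text names all 9 genes, other pathway genes in the break machinery list or past 4-fold in a comparison, and the 3 nearest profiles of each gene. Alternatives were other scalings, floors, a pseudocount, the mean over a gene's probe sets on its main design, a 2-fold threshold and each design alone. The genes and lists were chosen with earlier results of these data known. The calculations were tested on simulated data (Python 3.11.15, pandas 2.3.3, numpy 2.4.6).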

Additional observations from a re-analysis of the deposited data

How the results depend on the processing

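No paired analysis was possible because the samples numbered 1 and 2 of each group lie on different array designs with 1 array per group, so no gene was tested. The alternatives were 4 other scalings, 2 other floors, a pseudocount, the mean over a gene's probe sets on its main design, a 2-fold threshold and each design alone. In the 4 comparisons examined under these alternatives, no difference called at 4-fold in the main setting changed sign. Mre11a in whole testis against somatic mix, short of 4-fold, did: it was at 1.81, and at -1.08 with the second design alone. Pachytene against somatic mix was not among the 4 comparisons. There Mre11a was at 2.77 on its main probe set and at -1.20 on its second, on the other design. In leptotene/zygotene against spermatogonia 0 genes passed 4-fold under every alternative at that threshold, and 2 passed 2-fold. In pachytene against leptotene/zygotene the 4 calls became 2 (1 higher, 1 lower) with the values as deposited and with scaling to the shared probe sets; with each design alone there were 2, from fewer genes. The differences of Rad50 and Nbn there changed sign with the values as deposited (-0.27 and -0.15). In leptotene/zygotene against whole testis the 0 calls became 1 as deposited (Rec114, 2.13) and 3 at 2-fold. In whole testis against somatic mix the 2 calls became 4 with quantile normalization or median scaling, 1 with the floor at the 60th percentile (Spo11 at 1.54), 6 at 2-fold, and 0 to 2 with each design alone. Spo11 in leptotene/zygotene lay at that higher floor. Over single genes, 308 values moved by no more than the error of the comparison or not at all, and 56 by more. The 308 include values that a setting could not move, so they are no measure of stability. Such settings were the 2-fold threshold, the mean for a gene with no other probe set on its main design, and the design alone that held the main probe set. The counts over all genes in pachytene against leptotene/zygotene were 1175 higher and 1262 lower, and 1705 and 490 with the shared probe sets, 1502 and 746 with median scaling, 1204 and 841 with quantile normalization, 1178 and 1578 as deposited, 1019 and 777 with the floor at the 60th percentile 961 and 633 with the pseudocount and 2430 and 3746 at 2-fold. In leptotene/zygotene against spermatogonia they were 40 and 36, and 17 and 26 with that floor, 17 and 15 with the pseudocount and 441 and 617 at 2-fold. In whole testis against somatic mix they were 1081 and 853, 1288 and 665 as deposited and 2874 and 2758 at 2-fold; in leptotene/zygotene against whole testis 165 and 574, and 1245 and 1596 at 2-fold. Signal over background limits Mei4 and Prdm9.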

Other observations

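End joining, the repair route that competes with recombination for broken ends, was read in 9 genes, and its members parted in pachytene against leptotene/zygotene. Xrcc4, the ligase cofactor, rose 5.55-fold, with 1504 in pachytene against 271 in leptotene/zygotene, and Xrcc6, which encodes the Ku70 subunit that binds ends, fell by 2.07 on the log2 scale, with 172 in pachytene against 721 in leptotene/zygotene. Of 7 measured genes in that comparison these 2 passed 4-fold, and 3 lay above and 3 below the error limit (median -0.27). Over all genes 8.7% rose and 9.34% fell at 4-fold, 30% lay above and 44% below the limit and the median was -0.22, so these shares are near the background of the comparison. Between leptotene/zygotene and spermatogonia none of 8 passed 4-fold, where 0.31% of all genes rose and 0.279% fell, and 3 were higher beyond the limit, where 24.1% were. The part of cell composition in these values was not tested.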
